A study of Mus musculus with 20 samples.

Results

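Recovering skin was compared between its injured and its unaffected area, on day 8 of an experiment in which imiquimod cream was put on the mouse back. The comparison holds 4 injured and 4 unaffected arrays, chosen by their labelled treatment, which is 8 of the 20 arrays of the study. In each area 2 arrays came from Grhl3 WT mice and 2 from Grhl3 cKO mice, and the genotypes were pooled with genotype as a covariate. Both genotypes carry the Krt14cre label and the C57B6 strain label, so a Cre transgene under the keratin 14 promoter, which acts in keratinocytes of the basal layer, was present in controls as well. All 8 arrays were labelled male. Dorsal skin was shaved and treated with imiquimod cream, and the epidermis was then lifted off with dispase. The unaffected recovery skin is therefore skin of the same experiment and not untouched skin. The arrays used beside these were 4 of unaffected and 4 of injured skin on day 4 of imiquimod treatment, labelled female, and 4 of wax-stripped skin on day 4, labelled male, each with 2 arrays per genotype. Replicates are called biological in the labels, which do not say which animal gave which area, so the p-values measure the spread between these samples. With 2 arrays per genotype and area, the number of arrays limits the precision.

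Imiquimod activates TLR7 on immune cells, and the cream produces a psoriasis-like inflammation in mouse skin, in which keratinocytes divide faster and mature abnormally. When treatment stops, the epidermis returns gradually to its normal turnover, in which basal cells divide and their daughters move outward and form the cornified barrier. Grhl3 is a transcription factor of keratinocyte differentiation and barrier formation. In a bulk preparation such as this one, fewer cells of a type and less RNA per cell cannot be told apart.

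The deposited table held 35556 probe sets, of which 26310 were tested after repeats and dim probe sets were left out. No gene is named, because the pairing of probe-set IDs with gene symbols was not borne out by the values. Of the probe sets, 207 carried ribosomal protein labels and had a median signal at percentile 54.6, and 1023 carried olfactory receptor labels and had a median at percentile 52.1. Ribosomal protein genes are expressed strongly in every tissue and olfactory receptors hardly at all in skin, so IDs serve here only as positions in the table. Keratinocyte and other cell type markers, and the Grhl3 transcript, could not be read for the same reason. Over the 20 arrays of the study the median signal ranged from 169 to 199.9 intensity units.

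The labels of the injured recovery arrays were checked first. A gap of 3.67 to 6.74 on the log2 scale set the 8 female-labelled arrays apart from 8 male-labelled ones, those of wax-stripped and of unaffected recovery skin, in 5 probe sets. In each of the 5, the injured recovery arrays, though male by label, read like the female-labelled arrays on all 4 arrays. Probe set 10596383 read 6.94, 13.8, 22.8 and 17.5 intensity units in unaffected recovery skin (WT replicates 1 and 2, then cKO replicates 1 and 2, the order used throughout) and 4496, 4724, 4925 and 4931 in injured recovery skin. The injured arrays were thus near the 5613 ± 289 of unaffected imiquimod skin and far above the 10.4 ± 7.54 of wax-stripped skin (SD, n = 4 each). Probe set 10578761 read 3603, 3707, 3661 and 3314 in unaffected and 14.4, 17.4, 12 and 13.1 in injured recovery skin, against 12 ± 0.881 in unaffected imiquimod skin and 3544 ± 331 in wax-stripped skin (SD, n = 4 each). Probe set 10584600 read 3714, 3855, 4066 and 3837 in unaffected and 32.5, 44, 32.2 and 25.5 in injured recovery skin. In all 3 the areas did not overlap.

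**Figure D1:**
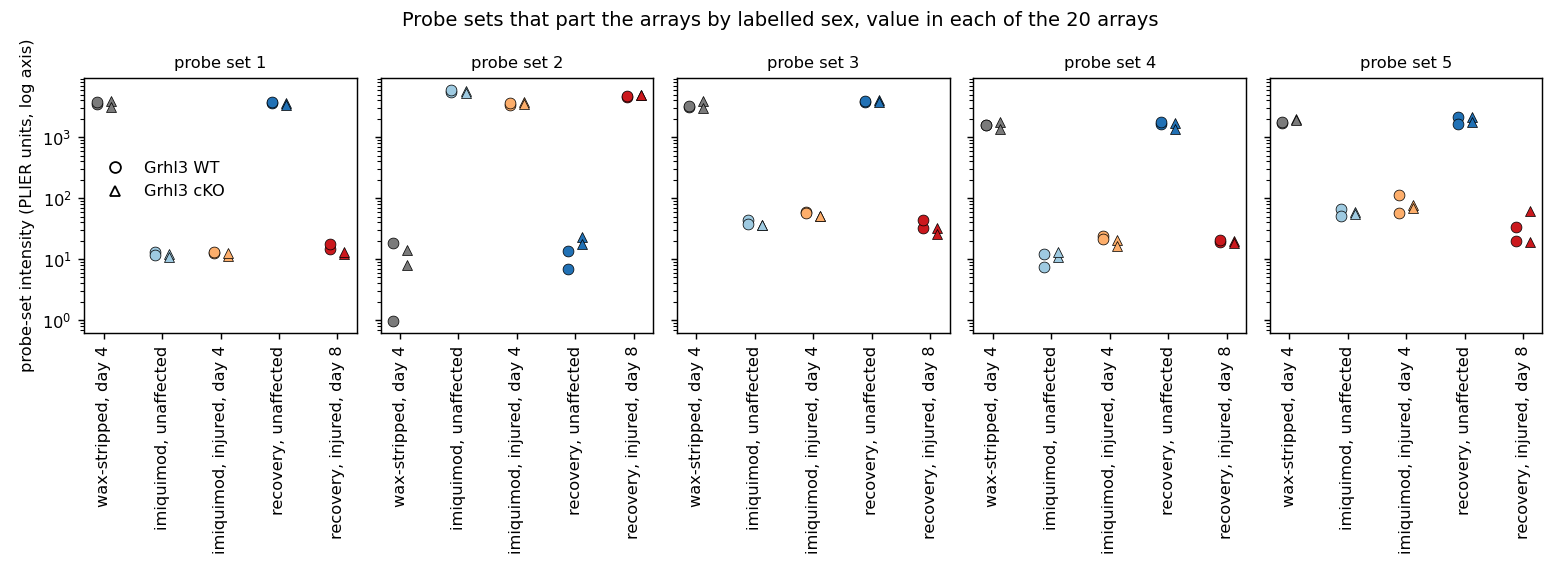
Intensity (PLIER units, log axis) of the 5 probe sets that part the arrays by labelled sex, in each of the 20 arrays, by condition; circles are Grhl3 WT and triangles Grhl3 cKO. The 4 injured recovery arrays, labelled male, lie with the arrays labelled female in every panel.

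These 5 probe sets gave the largest rise and the 4 largest falls of the whole recovery comparison. Probe set 10596383 was higher in the injured area by 7.28 ± 0.11 on the log2 scale (SE), 10578761 was lower by the log2 difference of -6.89 ± 0.066 and 10584600 by -6.3 ± 0.1 (limma adjusted p = 1.01e-08, 4.87e-10 and 1.12e-08). The injured recovery arrays may come from other animals than the labels say, and the area and the source of the animals cannot be told apart in the comparison with unaffected recovery skin. Counts and leading probe sets are for this reason also given against the 4 unaffected arrays of the imiquimod experiment, whose labelled sex the injured arrays match in these 5 probe sets. Against that second control the log2 differences were -0.23 for 10596383, 0.11 for 10578761 and -0.15 for 10584600 (limma adjusted p = 0.0256, 0.217 and 0.231). Of the 5, 2 were called different there, 10596383 and the one with the third largest fall, at 0.4 (limma adjusted p = 0.00505). The 2 comparisons share the 4 injured arrays and are not independent of each other, and the second control differs from the injured arrays in day and experiment.

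Injured recovery skin had higher values than unaffected recovery skin in 6700 of 26310 probe sets (25.5%) and lower values in 8748 (33.2%) (limma with genotype as covariate, Benjamini-Hochberg adjusted p under 0.05). Together 15448 were called (58.7%), and 16872 had an unadjusted p under 0.05. Most of these differences were small. The median difference of those called higher was 0.45 on the log2 scale (quartiles 0.32 and 0.67), and 4514 of them were under 1.5-fold. Among those called lower the median was -0.38, and 6967 were under 1.5-fold. The balance of directions was not fixed. With the 50th percentile as the filter on dim probe sets, 5903 were higher and 5011 lower. After quantile normalization 6500 were higher and 7221 lower. The median signal per array was 196.1 to 199.9 units in unaffected and 182.7 to 188.6 in injured recovery skin.

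The balance also followed the level of the signal. The probe sets were ranked by signal and cut into 4 equal classes. In the dimmest class, with a median of 114 intensity units, 661 were higher and 2898 lower, and the median difference was -0.21 on the log2 scale. In the second class, at 216 units, 1249 were higher and 2632 lower. In the third, at 467 units, 2175 were higher and 1844 lower. In the brightest class, at 1380.5 units, 2615 were higher and 1374 lower, with a median difference of 0.11. Small negative differences therefore lay mostly among dim probe sets and small positive ones among bright probe sets; the cause was not tested. Differences of at least 2-fold were closer to even in each class, from 85 higher and 84 lower in the dimmest to 202 and 166 in the brightest.

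At least 2-fold differences were called in 1284 probe sets (4.88%), 683 higher (2.6%) and 601 lower (2.28%). The 683 higher ones had a median over probe sets of 224 intensity units in unaffected and 776 in injured skin, and a median log2 difference of 1.34. The 601 lower ones had medians of 821 and 272 units and a median log2 difference of -1.36. Over all probe sets tested the medians were 309.9 units in unaffected and 310.0 in injured skin, and the median difference was -0.07. The 4 injured arrays did not overlap the 4 unaffected arrays in 661 of the 683 and in 595 of the 601. Over all probe sets this held for 13724 (52.2%, of which 23.5% higher and 28.6% lower in the injured area). The 683 and 601 were chosen on the same arrays, so their lack of overlap is a description only.

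The largest differences were mostly rises. At 4-fold or more 143 probe sets were higher and 84 lower, at 8-fold or more 67 and 12, and at 16-fold or more 36 and 5. At 32-fold or more 16 were higher and 4 lower, and these 4 were all among the probe sets that follow labelled sex. Of the 683 rises, 12 started under 50 intensity units in all 4 unaffected arrays, and 7 of these were over 500 units in all 4 injured arrays. The reverse was rarer, with 6 falls that ended under 50 units in all injured arrays, 3 of them from over 500 in all unaffected arrays. These 3 all follow labelled sex, and so does probe set 10596383 among the 7 rises. The sex-following probe sets are included in these counts.

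Set against the unaffected imiquimod skin, injured recovery skin had 5562 probe sets higher and 4688 lower (10250 in all, 39%; 21.1% higher and 17.8% lower). Differences of at least 2-fold numbered 624 and 606 (1230, 4.68%). Both controls together gave 4216 higher and 3449 lower (7665, 29.1%), and 446 higher and 417 lower by at least 2-fold in both (863, 3.28%). In 6921 probe sets (26.3%) the 4 injured arrays did not overlap any of the 8 unaffected arrays. Of the 683 strong rises, 639 (93.6%) were also called higher against the second control, 42 were not called and 2 were lower. Of the 601 strong falls, 545 (90.7%) were also called lower, 54 were not called and 2 were higher. At 16-fold or more in both comparisons there were 25 rises and 1 fall.

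The 2 unaffected skins themselves were not alike. Between them 2800 probe sets were higher and 2507 lower in recovery skin (5307, 20.2%), but only 107 and 142 by at least 2-fold (249, 0.946%). Labelled sex, day and experiment all differ between the 2, and their parts cannot be told apart. The count of 5307 became 2811 without unaffected recovery WT replicate 1, 1981 without cKO replicate 1 and 3275 without cKO replicate 2.

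**Figure D2:**
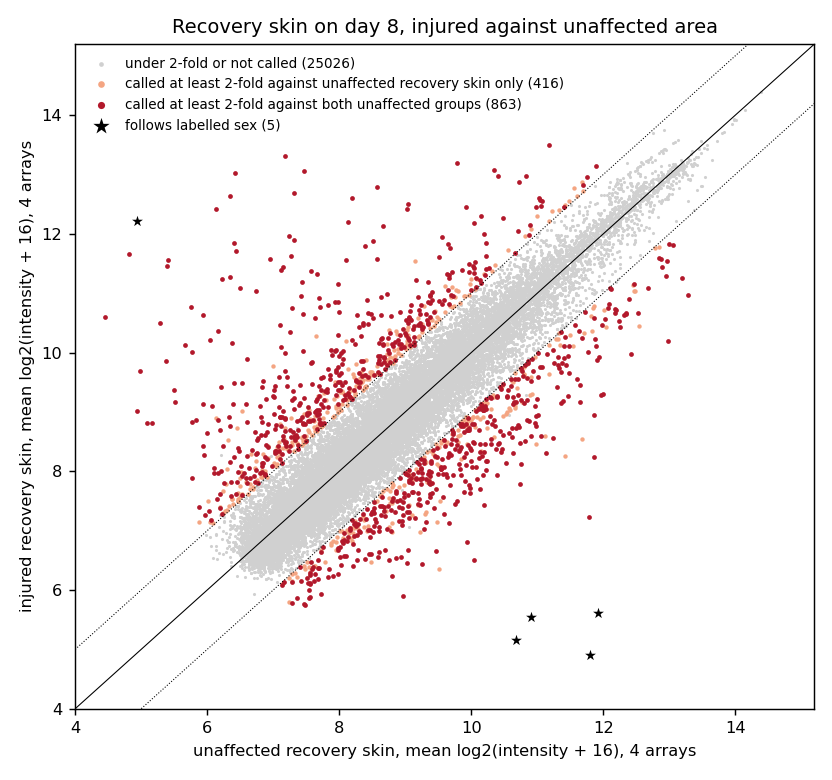
Mean log2(intensity + 16) of 26310 probe sets in 4 unaffected (horizontal) and 4 injured (vertical) recovery arrays, with equality as a solid line and 2-fold as dotted lines. The 863 dark red points were called at least 2-fold against both unaffected groups, and the 5 stars, which follow labelled sex, include the point farthest above the line and the 4 farthest below it.

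The largest rises that held against both controls formed a group that was dim in unaffected skin and bright in injured skin. Probe set 10429898, the first of them, read 6.51, 10.8, 6.95 and 30.1 intensity units in unaffected and 2484, 2799, 4243 and 3723 in injured recovery skin. The areas did not overlap, which the choice of these probe sets required. The log2 difference was 6.85 ± 0.19 (SE; limma adjusted p = 5.21e-07) and 6.68 against the second control. Its level in injured skin was close to that on day 4, at 3908 ± 413 units (SD, n = 4), and the difference between the 2 injured groups was not called (adjusted p = 0.15, limma).

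The next 3 rises had a like profile. The second read 47.2, 88.4, 39.8 and 132 units in unaffected and 8130.1, 8205, 8700.3 and 8388 in injured recovery skin, a log2 difference of 6.61 ± 0.28 (SE; limma adjusted p = 3.38e-06). The third went from 45.9, 73.2, 31.4 and 148 to 6172, 5960.3, 6795 and 6581, and the fourth from 29.6, 62.8, 36.7 and 111 to 4798, 5211, 6484 and 5509.9. In all 3 the 4 injured arrays lay close together, and unaffected cKO replicate 2 was the highest of its area. Against the second control their log2 differences were 6.4, 6.1 and 5.6. On day 4 their injured means were 9026 ± 113, 6472 ± 288 and 6103 ± 404 units (SD, n = 4 each), and none of the 3 differed between injured recovery and injured day 4 skin by the test (limma adjusted p = 0.123, 0.808 and 0.203).

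Other leading rises had lower levels in recovery than on day 4. The fifth read 25.5, 28.2, 23 and 29.4 units in unaffected and 3474, 2099.9, 3263 and 3507 in injured recovery skin, against 7571 ± 421 in injured day 4 skin (SD, n = 4). Its recovery difference was 6.16 ± 0.15 on the log2 scale (limma adjusted p = 2.23e-07), and the recovery difference minus the day 4 difference was -1.42 ± 0.22 (SE; limma adjusted p = 0.0011). The sixth went from 3.11, 8.33, 7.49 and 4.66 to 2573, 1793, 1114 and 1097 units, 6.16 ± 0.21 on the log2 scale, with 3073 units on average in injured day 4 skin and a difference from day 4 of -0.84 (limma adjusted p = 0.0476). The seventh was the brightest, from 114, 119.5, 138 and 149 to 11717, 4879.6, 13143 and 14072 units. On day 4 its injured arrays read 45408, 13818, 49782 and 49219. WT replicate 2 was thus the lowest injured array at both times, and the recovery difference was below that of day 4 by -1.83 ± 0.49 (SE; limma adjusted p = 0.0177). Against the second control the log2 differences of the fifth, sixth and seventh rises were 6.27, 6.09 and 6.16.

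Several of these rises were also bright after wax stripping, the fifth and the seventh in cKO skin only. The choice of probe sets did not use the wax-stripped arrays. The first read 217 and 238 units in wax-stripped WT and 2906 and 2420.4 in wax-stripped cKO skin. The second read 2887 and 2853 in WT and 7007 and 5911 in cKO skin. The fifth was low in WT, at 18.7 and 13.5 units, and read 786 and 936 in cKO skin. The seventh read 122 and 88.2 in WT and 7863 and 9434 in cKO skin. In each of these 4 the cKO arrays lay above the WT arrays after wax stripping, while in injured recovery skin the arrays of the 2 genotypes overlapped in the fifth. In the first, the second and the seventh both cKO arrays were above both WT arrays there too. The sixth rise stayed far below its injured recovery level after wax stripping, at 18.7 and 22.6 units in WT and 102 and 156 in cKO skin.

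Among the leading probe sets, falls were smaller than rises. The 683 strong rises and 601 strong falls as a whole had like medians, at 1.34 and -1.36 on the log2 scale. The largest fall against both controls went from 3180.4, 3342, 4000.1 and 3538 units in unaffected to 119, 38.1, 164 and 371 in injured recovery skin, a log2 difference of -4.55 ± 0.39 (SE; limma adjusted p = 5.32e-05) and -4.3 against the second control. Its injured arrays spread widely and stayed far below every unaffected array. On day 4 it read 53.5 ± 27.4 in injured skin and after wax stripping 459 ± 136 (SD, n = 4 each). Injured recovery skin was above injured day 4 skin by 1.21 ± 0.33 on the log2 scale (SE; limma adjusted p = 0.0213), while the recovery minus the day 4 difference was not called (limma adjusted p = 0.151). The second fall went from 4231, 3599, 4507 and 2703 to 248, 218, 229 and 537, a log2 difference of -3.62 ± 0.28 (SE; limma adjusted p = 3.23e-05). It was smaller against the second control, at -2.8.

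The remaining falls described here were of similar size. The third went from 977, 1299.7, 1119 and 806 to 72.4, 71.2, 90.9 and 66.5 units (log2 difference -3.53 ± 0.15, SE), and the fourth from 940.4, 1388, 665 and 1003 to 96.5, 108, 76.3 and 108 (-3.13 ± 0.18). The fifth went from 477, 516, 519 and 434 to 50.4, 14.5, 31.3 and 117 (-3.07 ± 0.36). Their limma adjusted p values were 3.38e-06, 8.72e-06 and 0.000252, and the choice of the falls required areas that do not overlap. The sixth fall was deeper on day 4. It went from 1774, 1691, 1818 and 1496 units to 301, 233, 119 and 209.6 in injured recovery skin, but to 25.8 ± 7.05 in injured day 4 skin (SD, n = 4). Injured recovery skin was above injured day 4 skin by 2.42 ± 0.24 on the log2 scale (SE; limma adjusted p = 0.000433), and the recovery difference was smaller in size than that of day 4 by 1.45 ± 0.28 (limma adjusted p = 0.0035). The log2 difference of this sixth fall was -2.95 against unaffected recovery skin and -1.98 against the second control, which read 868 ± 163 units (SD, n = 4).

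**Figure D3:**
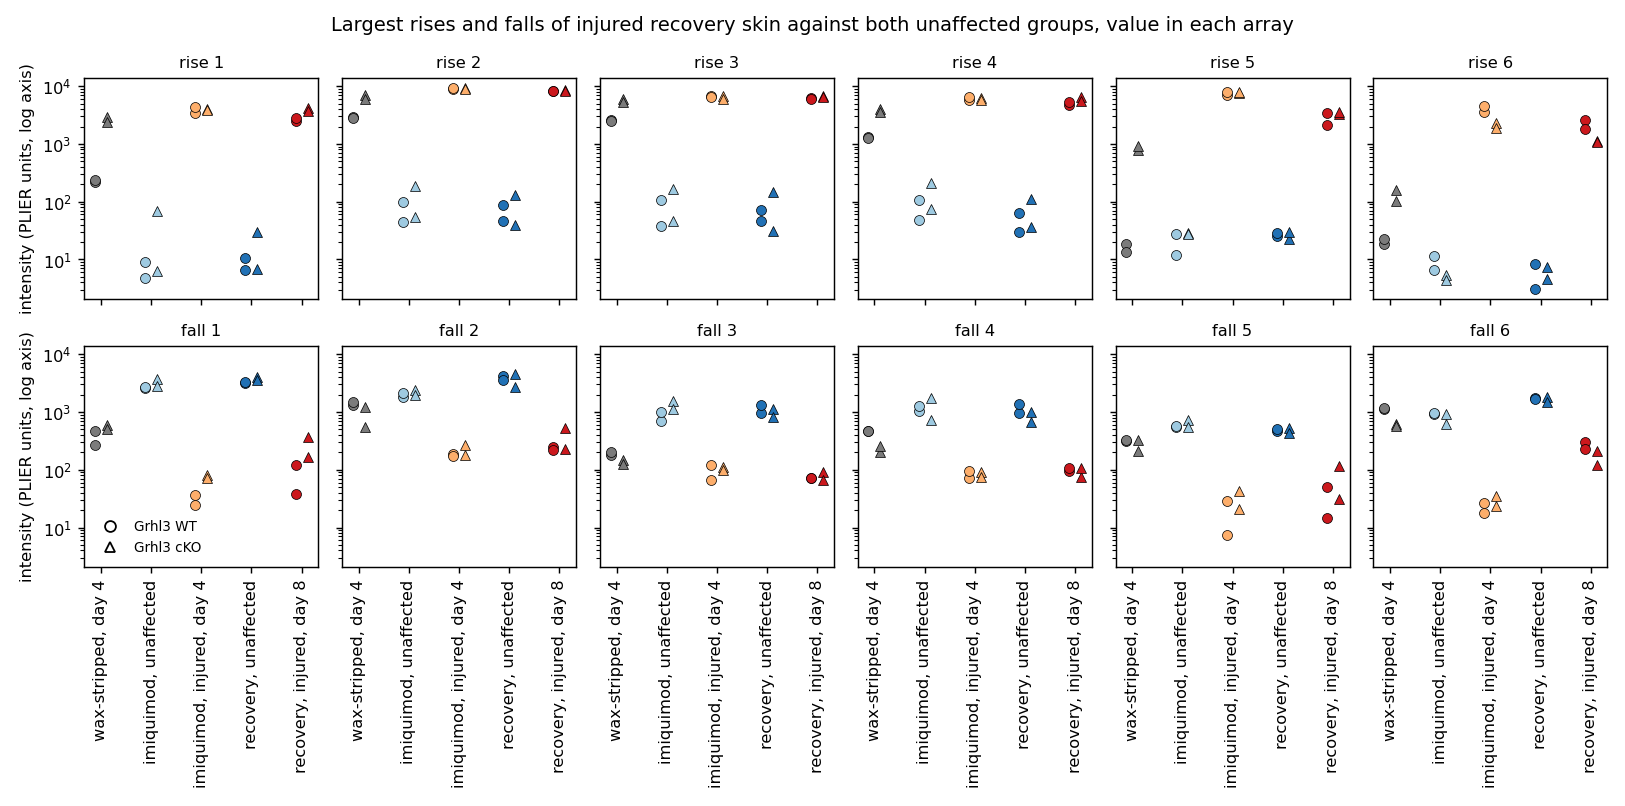
Intensity (PLIER units, log axis) in each of the 20 arrays for the 6 largest rises (top) and 6 largest falls (bottom) of injured recovery skin against both unaffected groups; circles are Grhl3 WT and triangles Grhl3 cKO. The choice required the 4 injured recovery arrays (red) to lie apart from all 8 unaffected arrays (blue). They lie apart by more in the rises than in the falls.

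The arrays of recovery skin separated by area in a principal component analysis of the 26310 probe sets. The first component held 75.1% of the variance, with the unaffected arrays between -46.9 and -41.3 and the injured arrays between 36.2 and 52.5. The second component held 8.72% and parted the genotypes within injured skin, with WT at -11.1 and -29.4 and cKO at 23.4 and 12.8, while the unaffected arrays lay between -5.75 and 7.91. Correlations of log2 values were 0.985 to 0.991 between replicates and 0.909 to 0.934 between areas. Between genotypes they were 0.974 to 0.987 in injured and 0.981 to 0.989 in unaffected skin. Replicates differed by a median of 0.1 to 0.127 on the log2 scale in the 4 groups.

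The area difference was then taken apart by genotype. In WT skin 4185 probe sets were higher and 4644 lower (8829, 33.6%), and in cKO skin 6115 and 7496 (13611, 51.7%). At least 2-fold differences numbered 1281 (4.87%) in WT and 1482 (5.63%) in cKO skin. A larger count in one genotype is not a test of the genotypes. The WT and cKO differences, which share no array, correlated at Pearson r = 0.859 and Spearman rho = 0.808 across probe sets, and probe sets do not replicate each other. The median log2 difference of the 683 strong rises was 1.3 in WT and 1.41 in cKO skin, and the 601 strong falls -1.42 and -1.33, against -0.06 in both genotypes over all probe sets tested. These lists were chosen on the same arrays, so that all 683 and all 601 had 1 direction in both genotypes is a description only.

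The direct test of the cKO minus the WT difference called 2 probe sets (0.0076%), and 2862 (10.9%) had an unadjusted p under 0.05. The first, larger in cKO, read 113 and 149 units in unaffected WT and 62.6 and 52.9 in unaffected cKO skin, and 84.2 and 71.2 in injured WT and 417 and 350.0 in injured cKO skin. The difference between genotypes was 3.08 ± 0.22 on the log2 scale (SE; limma adjusted p = 0.018). All 12 arrays outside recovery skin read between 332 and 587 units, so it was injured cKO recovery skin that had the level found elsewhere. The other, smaller in cKO, read 46.7 and 43.8 in unaffected WT and 53.1 and 49.3 in unaffected cKO skin, and 2295 and 1447 in injured WT and 89.6 and 57.5 in injured cKO skin (-4.52 ± 0.33, SE; limma adjusted p = 0.018). Outside recovery skin it was high in single arrays of both genotypes, at 50.3, 547, 4474 and 58.5 in injured day 4 skin and at 42.7, 36.8, 1026 and 51.4 after wax stripping. Both calls changed when single arrays were left out. The count was 0 without unaffected cKO replicate 1 and without either injured cKO replicate, 1 without unaffected cKO replicate 2, 5 without injured WT replicate 2 and 7 without unaffected WT replicate 2. A p-value that misses the threshold does not show that the genotypes recovered alike.

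**Figure D4:**
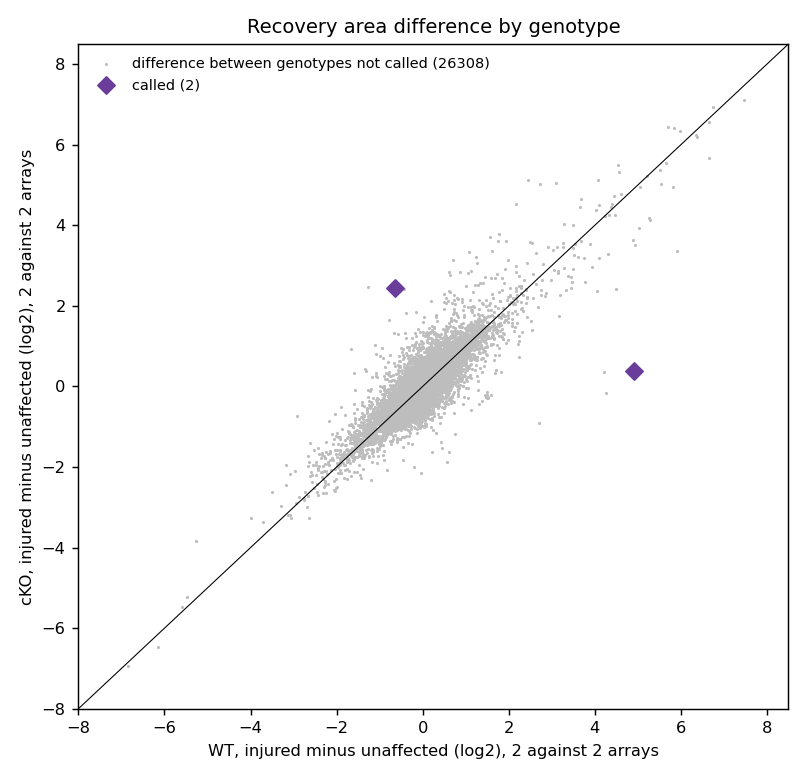
Log2 difference of injured minus unaffected recovery skin for 26310 probe sets in WT (horizontal) and cKO (vertical) mice, 2 against 2 arrays each, with equality as a line. The 2 diamonds are the probe sets whose difference between genotypes was called, and all other probe sets are grey.

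The day 4 comparison of the imiquimod experiment, with separate arrays, shows where recovery skin differed from inflamed skin. On day 4 the test called 5547 probe sets higher and 6038 lower with injury (11585, 44%), 641 and 1277 of them by at least 2-fold (1918, 7.29%). With each array centred on its median, a choice made after the data were seen, 7530 were higher and 4968 lower on day 4. In the values as deposited, strong falls outnumbered strong rises on day 4, while in recovery 683 strong rises stood against 601 strong falls. Across probe sets, the log2 differences of the 2 times correlated at r = 0.71 and rho = 0.585.

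Most of the strong recovery differences had the same direction on day 4. Of the 683 raised in recovery, 559 (81.8%) were called higher on day 4, 28 lower and 96 not called, with a median day 4 difference of 1.15 on the log2 scale. The background was 21.1% of all probe sets called higher on day 4, with a median of 0.01. Of the 601 lowered in recovery, 563 (93.7%) were called lower on day 4, 2 higher and 36 not called, with a median of -1.56, against 22.9% of all probe sets. Read from the day 4 side, 594 of the 641 strong rises were called higher in recovery (25.5% of all probe sets), with a median of 1.2 in recovery and 1.36 on day 4. Of the 1277 strong day 4 falls, 993 were called lower in recovery (33.2% of all probe sets), 53 higher and 231 not called, with a median of -0.8 in recovery and -1.37 on day 4. Against both controls, 570 of the 641 were called higher, and 905 of the 1277 lower and only 6 higher. Over all 26310 probe sets, 4216 were called higher and 3449 lower against both. The second control was also part of the day 4 comparison that defined these lists.

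The test of the recovery minus the day 4 difference over 16 arrays called 6766 probe sets (25.7%), 3582 higher and 3184 lower. The split is not fixed, since it was 2957 and 3241 after quantile normalization and 2760 and 4742 with each array centred on its median. By at least 2-fold there were 578 above day 4 and 135 below (713, 2.71%). Both groups were chosen on a difference that contains the day 4 and the recovery values, so their calls at each time are a description only. Of the 578, 487 were called lower on day 4 (22.9% of all probe sets), 18 higher and 73 not called. In recovery 227 of them were higher (25.5% of all), 127 lower (33.2%) and 224 not called. Of the 135, 93 were called higher on day 4 (21.1% of all), 11 lower and 31 not called.

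The rule for the largest differences from day 4 led back to the labels. The largest above day 4 was 10596383, by 7.94 on the log2 scale, and the 2 largest below were 10578761 and 10584600, by -6.92 and -6.69, all of them among those that follow labelled sex. The second above day 4 read 60.4, 168, 86.1 and 169 units in unaffected and 715, 212, 2349 and 1478 in injured recovery skin, and 489 ± 239 in unaffected and 75.3 ± 13.2 in injured day 4 skin (SD, n = 4 each). Its recovery difference exceeded that of day 4 by 5.11 ± 0.71 (SE; limma adjusted p = 0.000583), but injured recovery skin did not differ by the test from unaffected imiquimod skin (limma adjusted p = 0.154). The third read 26.2, 64.1, 48.3 and 94.9 in unaffected and 333, 126, 1136 and 918 in injured recovery skin, with a difference from day 4 of 4.95 ± 0.59 (limma adjusted p = 0.000267) and an adjusted p of 0.089 against the second control. In both, injured WT replicate 2 was the lowest injured array.

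Injured skin of the 2 times was also compared directly, a comparison chosen after the data were seen. It gave 5954 probe sets higher and 4391 lower in recovery (10345, 39.3%), 540 and 101 of them by at least 2-fold (641, 2.44%). Labelled sex, day and experiment differ between these groups as well. Of the 578 probe sets whose area difference was at least 2-fold above that of day 4, 482 were also higher in injured recovery than in injured day 4 skin by this test, against 22.6% of all probe sets. Among the 135 below day 4, 94 were also lower, against 16.7%. Both tests use the injured arrays.

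**Figure D5:**
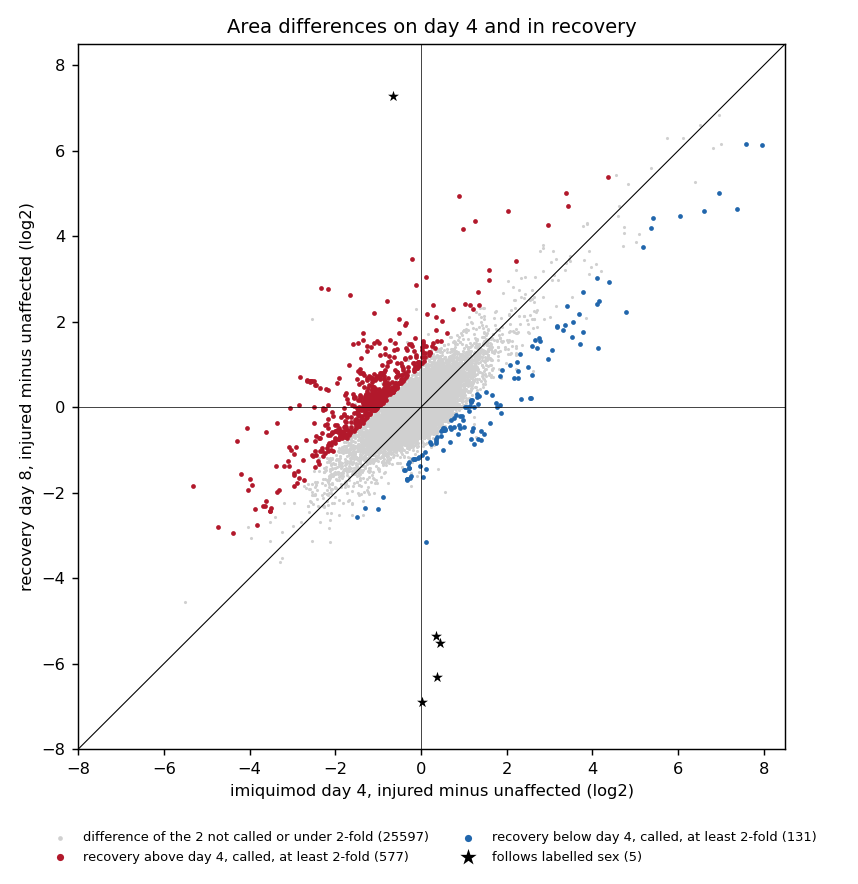
Log2 difference of injured minus unaffected skin for 26310 probe sets on day 4 of imiquimod treatment (horizontal) and in recovery on day 8 (vertical), with equality as the diagonal. Red and blue points are the 577 and 131 probe sets whose 2 differences differed by at least 2-fold and were called, without the 5 that follow labelled sex (stars).

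A set of 34 of the 26310 probe sets was raised in recovery skin and not called raised on day 4. The set was defined after the data were seen. It took probe sets at least 2-fold higher against both controls, without overlap with the 8 unaffected arrays. They also had a called difference from day 4, lay at least 2-fold above injured day 4 skin and had no called rise on day 4. Of the 34, 4 were called lower on day 4 (22.9% of all probe sets). The set gets no test. The medians over the 34 were 294 intensity units in unaffected and 941 in injured recovery skin, and 229 and 190.2 in the same areas on day 4. In wax-stripped skin, which the choice did not use, the median was 804, near that of injured recovery skin. The corresponding set of falls was empty.

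The first of the 34 read 63.9, 42.1, 118 and 53.6 units in unaffected and 1099, 2279.7, 2517 and 5827 in injured recovery skin. On day 4 it read 178 ± 106 in unaffected and 366 ± 240.0 in injured skin (SD, n = 4 each), a difference that was not called (limma adjusted p = 0.24). After wax stripping it read 2087, 1644, 2355 and 1451. Injured recovery and wax-stripped skin thus had similar levels, and injured day 4 skin a lower one. The second read 333, 307, 288 and 793 in unaffected and 6957, 8246, 2099 and 3315 in injured recovery skin, where both WT arrays lay above both cKO arrays. It read 308 ± 224 in injured day 4 skin (SD, n = 4) and 2674, 2785, 2473 and 2203 after wax stripping. The third, dimmer, read 67.1, 88.1, 15 and 23.3 in unaffected and 261, 979.9, 239 and 665 in injured recovery skin, and 635, 616, 578 and 244 after wax stripping. In this one the second replicate of each genotype was the higher, and the same was so of the fifth, at 445, 1608, 430.0 and 1050.2 in injured recovery skin. The fourth went from 186, 246, 116 and 579 to 2216, 2389, 1316 and 1608 units.

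Other day 4 differences were not called in recovery. One probe set raised on day 4, from 277 ± 121 to 1664 ± 436 units, read 246 ± 28.3 in unaffected and 294 ± 77 in injured recovery skin (SD, n = 4 each; limma adjusted p = 0.219 for the recovery difference). Another, raised on day 4 from 251 ± 91.4 to 1816 ± 1340 units, only just missed the call in recovery. It read 160 ± 80.1 in unaffected and 262 ± 48.6 in injured recovery skin (SD, n = 4 each; log2 difference 0.75, limma adjusted p = 0.0507). One lowered on day 4, from 1059 ± 331 to 152 ± 96.9, read 2207, 2397, 1041 and 3316 in unaffected and 2718, 3639, 980.3 and 2224 in injured recovery skin. Its areas overlapped fully in recovery, with a log2 difference of 0.06 (limma adjusted p = 0.9), and on day 4 the difference was -2.84 (limma adjusted p = 6.65e-05). After wax stripping it read 4089.7 ± 709 (SD, n = 4). These examples were chosen after their values were seen, among called day 4 differences whose recovery difference was not called.

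The strong recovery lists were last read in wax-stripped skin against unaffected imiquimod skin, arrays that the choice of the lists did not use. The 683 raised probe sets differed by a median of 0.56 (log2) in WT and 0.84 in cKO skin, and the 601 lowered ones -0.49 and -0.78, against -0.02 and 0 over all probe sets tested. Between the wax-stripped genotypes, 521 of the 683 were higher in cKO than in WT skin, with a median of 0.17. Of the 601, 100 were higher in cKO, with a median of -0.22. Over all probe sets tested 13671 of 26310 were higher, with a median of 0.01. These counts are of probe sets, which share arrays, and the labelled sex of the wax arrays differs from that of the control used here.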

How the data were processed

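Per the labels' protocols, epidermal RNA was hybridised as biotinylated cRNA to Affymetrix Gene ST arrays. Each value the authors deposited is the intensity of a probe set (linear scale). The submitters' processing notes name Affymetrix Expression Console and PLIER, a model that combines probes into a probe-set value; their versions, the genome build and the annotation were not given in the sources used here. Groups, day and sex were taken from the labels.

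Values were used as deposited, as log2(intensity + 16), and fold changes are on that scale, where those of dim probe sets are understated. Arrays had 75th percentiles of 9.01 to 9.18 on it. Repeats with identical values on all arrays (476) were dropped, leaving 35080 probe sets, and a filter on the mean log2 value at the 25th percentile left 26310. Differences were fitted with limma 3.58.1 in R 4.3.3 (lmFit, eBayes) on the arrays of each comparison, with genotype as covariate (5 residual degrees of freedom for 8 arrays). The genotype test and the differences within each genotype used 4 group means, fitted on all 8 recovery arrays. Benjamini-Hochberg adjustment ran over all 26310, with a threshold of 0.05, and the fit was tested on simulated data. Errors are SD over arrays or the limma standard error (SE).

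The comparison, its members and its lists were chosen with earlier results of these data known. Genes were to be named only if ribosomal labels lay above percentile 80 and olfactory labels below 50. As they did not, probe sets are described by rank, the 6 largest in each direction among those called without overlap, and IDs are printed for 2 of each. The leading lists against both controls repeat that rule with the second control added, a choice made after the data were seen. The planned Grhl3 level, gene lists and cell type markers need names and were not run. Deviations of same-numbered arrays hardly correlated between the areas (0.03 in WT and 0.063 in cKO skin). With 2 arrays per genotype and area, this cannot show whether the areas were paired. Alternatives were pseudocounts of 1 and 64, quantile normalization, other filters, eBayes with trend, all 20 arrays in a single fit and a replicate block. Others were the difference within each genotype, the second control, left-out arrays and, added after the data were seen, arrays centred on their median.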

Additional observations from a re-analysis of the deposited data

Results flagged for a closer look

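In 4 of the 68 groups of 4 arrays examined, 1 array lay apart from the other 3, and chance alone sets about 1 in 20 such groups apart. Injured cKO replicate 2 was the highest in the second largest of the falls that held against both controls, at 537 intensity units, and in the eighth, at 480.4 units, against 218 to 248 and 246 to 272 in the other injured arrays. Unaffected cKO replicate 2 was the highest in the seventh of these falls, at 4931 units, and in the second of the 34 probe sets raised in recovery only, at 793 units.

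The area difference of 2 probe sets was called different between genotypes, larger in cKO by 3.08 in the one and with a cKO minus WT value of -4.52 in the other, on the log2 scale. Both calls were lost when some single arrays were left out.

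The area differences of recovery and of day 4 differed in 6766 probe sets by the direct test. The 5 that follow labelled sex were among the largest of these, and labelled sex, day and experiment cannot be told apart.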

How the results depend on the processing

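Of the values of single probe sets under all alternatives, 702 kept their direction and their side of the threshold, 16 kept the direction and lost the call, and 3 reversed. The 3 are probe sets that follow labelled sex, against unaffected imiquimod skin: -0.23 for 10596383, 0.11 for 10578761 and 0.4 for the one with the third largest fall of all. Of the counts, 118 stayed within 1.5 times their value. The pooled count of 15448 became 8829 for the WT difference, a contrast in the fit of all 8 recovery arrays. It became 10250 against unaffected imiquimod skin and 7665 against both controls. The count of 2 for the genotype difference became 27 with a pseudocount of 64, 36 with all 20 arrays in the fit and 9 when the 50th percentile was the filter, and that of 5307 between the unaffected skins became 8065 with all 20 arrays; the cause was not tested. At an unadjusted p under 0.05 limma gave 2862 for the genotype difference.

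With single arrays left out, counts ranged from 12816 to 15767 for the pooled count, 1235 to 1349 for its at least 2-fold part, 0 to 7 for the genotype difference, 9731 to 11513 on day 4, 5000 to 8569 for recovery minus day 4, 8050 to 10416 against unaffected imiquimod skin and 1981 to 4023 between the unaffected skins. With the replicate number as a block the pooled count was 14414, its at least 2-fold part 1287, day 4 10476, recovery minus day 4 5220 and the genotype difference 0, where both probe sets missed the threshold (limma adjusted p = 0.0953 and 0.0662).

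Limits are the number of arrays, 4 per area, the unknown animal source of the injured arrays, and gene names that could not be used. Dim probe sets have less signal over background, and their differences are understated on this scale.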
